A study of Mus musculus with 4 samples.

Results

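The genes described here are mouse genes whose annotated 5' untranslated region (5'UTR, the stretch of mRNA between the cap and the start codon) is 1 to 49 nt long. They were chosen by that length and by a coding-sequence (CDS) RNA level of at least 1 RPM (reads per 1000000) in the tissue concerned. The deposited CDS values of each library sum to nearly 1000000 RPM (993831 to 998118), with UTR reads on top of that. In heart 1391 of the 10680 genes at that level met the rule, and in tibialis anterior (TA, a fast skeletal muscle of the lower leg) 1320 of 10029. Between them the tissues gave 1439 genes of 11237 listed, and 1272 met the rule in both. No expression difference was used to choose them. Their median 5'UTR was 30 nt long in both tissues.

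The study profiled ribosomes in untreated muscle of C57BL/6J male mice aged 10 weeks, without transgene or treatment. Each tissue gave 1 library of ribosome-protected fragments (RPF, the 26 to 36 nt pieces of mRNA that ribosomes shield from RNase I) and 1 library of rRNA-depleted total RNA. Both were made from 1 lysate of 100 mg of tissue in cycloheximide, which holds ribosomes on the mRNA. The number of animals behind each lysate was not given in the sources used here. With 1 library per tissue and kind there is no replicate spread and no test, so intervals on single genes cover counting error only. Intervals on medians describe the spread among genes, not among animals.

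The libraries held 9285000 to 28518000 coding reads, estimated from the size of the smallest step between deposited values. The tissue labels matched their defining markers: a fixed list of 13 cardiac genes took 11.2% of the coding RNA in heart and 0.025% in TA, and a list of 13 fast skeletal genes took 0.023% and 21.8%. Red cell genes took 1.26% of the coding RNA in heart and 0.047% in TA.

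Most mRNAs are translated by scanning: a small ribosomal subunit loads at the cap and moves along the 5'UTR until it meets a start codon. A very short leader leaves little room for this, and start codons close to the cap are often bypassed. A known exception is the TISU element (translation initiator of short 5'UTR), which contains the start codon and is found in many housekeeping and mitochondrial genes.

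The sequences around the start codon of some of these genes are shown first, to make plain how little mRNA precedes it. They were read from RefSeq (assembly GRCm38.p6) by stepping the deposited 5'UTR length downstream from the RefSeq gene start in unspliced genomic sequence. Each runs 5' to 3' from at most 12 bases before the start codon, and the start codon is in capitals. The first 4 begin at the gene start and have leaders of 1, 1, 2 and 6 nt. The others are genes whose values are given further on.
Scn4a: gATGgccagctca
Spryd4: gATGgcgctgccc
Mrps5: gcATGgcggcggcc
Psmc5: gggaagATGgcgcttgat
Ndufc1: ctgcggaacaagATGgcgccgtcc
Hadha: cttctgctcaagATGgtggcgtcc
Atp5b: ccggattccgccATGttgagtctt
Rpl13a: cggctgccgaagATGgcggagggg
Mybpc3: gtggcctgcttgATGcctggtgtg
Zfp277: ctgtgccaggtaATGgctgctagt
Pde4dip: ggcctcggaaccATGaagcgcacg

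In 598 genes with an ATG at the deposited distance the entry also held all bases from 3 before to 5 after it. The most frequent such sequence, AAGATGGCGGC, is the known TISU core and was found in 41 genes. Next came AACATGGCGGC in 10 genes, AAGATGGCTGC in 8 and AAGATGGCGGA in 7, among 447 different sequences. In the following genes the capitals mark the core.
Ndufa9: ttgtgggagAAGATGGCGGCcgcc
Ndufs4: gcctacaggAAGATGGCGGCggtc
Mrpl35: gcaggctgcAAGATGGCGGCttcc
Timm50: cgtcagcgcAAGATGGCGGCctcg
Psmb6: tagcagaggAAGATGGCGGCcg
Rnf169: acgggaaacAAGATGGCGGCggca
Thoc2: agcgaggggAAGATGGCGGCcgcg

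RefSeq promoter entries were found for 1179 of the 1439 genes. For 1121 of these the start codon would lie inside the entry, and in 682 (60.8%, Wilson interval 57.9 to 63.7) an ATG stood exactly where the deposited length puts it. The share was 44.1% for leaders of 1 to 9 nt and 68.3% for 30 to 39 nt. The deposited lengths belong to files made on mm9. For the remaining 439 genes no ATG stood at the deposited distance in the entry. The entries are unspliced, so a leader split by an intron, another transcript start and a changed annotation could not be told apart. Efficiency differed little between these sets: the median difference from other genes of like CDS length, defined below, was 0.102 on the log2 scale in heart where the ATG was in place and 0.096 where it was not, and 0.087 and 0.048 in TA, with overlapping intervals (-0.002 to 0.163 and -0.094 to 0.160).

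The core AAGATGGCGGC was picked by that frequency in these genes and then searched on the sense strand in the first 50 bases after the gene start. It was present in 60 of 1179 short-leader genes (5.09%, interval 3.97 to 6.50), and 41 of those are the genes that picked it. It was present in 14 of 2591 genes with a 5'UTR of 100 to 200 nt (0.540%), in 105 of 8867 listed genes (1.18%) and in 120 of 17492 coding genes of RefSeq (0.686%). On the reverse strand the short-leader share was 0.0848%, against 0.0743% of all coding genes. Over the whole 300-base entry (250 before and 50 after the gene start) and either strand, the core was in 5.51% of short-leader entries and 1.06% of all coding entries. Because the core itself holds ATG, any gene whose coding sequence starts within 50 bases has more chance of holding it, and that part was not separated. An ATG stood in the first 50 bases of 76.1% of short-leader genes, 28.4% of genes with a 5'UTR of 100 to 200 nt and 35.3% of listed genes. Leaders of 100 to 200 nt put the start codon beyond those bases, so the contrast with them was partly set by the choice of genes. In 72 genes the first 9 bases of the core, AAGATGGCG, sat exactly on the start codon. The motif TATAAA, 16 to 40 bases before the gene start on the sense strand, was in 1.70% of short-leader entries, 1.53% of listed genes and 3.06% of all coding genes. On the reverse strand it was in 0.339% and 0.743% of the short-leader and all coding entries.

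Translational efficiency was taken as log2 of the RPF over the RNA level of the CDS, with 0.1 RPM added to both, set so that the median gene of each tissue is 0. Short-leader mRNAs were above the median gene in both muscles. Their median efficiency was 0.26 in heart (quartiles -0.31 and 0.89) and 0.25 in TA (quartiles -0.37 and 0.83). For the 3103 and 2938 genes with a 5'UTR of 100 to 200 nt it was 0.05 in heart and 0.04 in TA. In heart 300 short-leader genes (21.6%) exceeded the median gene by 2-fold or more, against 16% of all genes, and 116 (8.34%) were at least 2-fold below, against 17.8%. In TA 248 (18.8%) were above, against 15.4% of all genes, and 125 (9.47%) below, against 18.7%. Without setting the median gene to 0, the heart counts became 143 above and 234 below. That step shifts every gene of a tissue by the same amount, and counts over all genes without it were not taken.

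These genes also have short coding sequences, with a median CDS of 1086 nt against 1428 nt in heart and 1422 nt in TA for leaders of 100 to 200 nt. From 300 nt upward, classes of longer CDS had lower median efficiency in both sets, so each short-leader gene was set against the 50 genes with a leader of 100 to 200 nt nearest to it in CDS length. The median difference was then 0.096 in heart (interval 0.063 to 0.147, a ratio of 1.07) and 0.086 in TA (0.016 to 0.128, a ratio of 1.06). Among the short-leader genes 786 of 1391 in heart and 704 of 1320 in TA were above their neighbours. These intervals leave out the error of the shared comparison genes and are therefore too narrow. Without regard to CDS length the difference was 0.22 in heart and 0.21 in TA, more than 2 times as large.

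At like CDS length the contrast lay in the low tail. In heart 21.6% of short-leader genes and 20.2% of their neighbours were at least 2-fold above the median gene, while 8.34% and 13.4% were at least 2-fold below. In TA the shares above were 18.8% and 19.9%, and those below 9.47% and 14.3%. Classes of CDS length differed from these pooled shares. At 300 to under 600 nt 44.7% of short-leader genes and 35.5% of the comparison genes were above in heart, and 40.3% and 30.3% in TA. At 4800 nt and above in TA 52.8% and 43.8% were below.

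**Figure D1:**
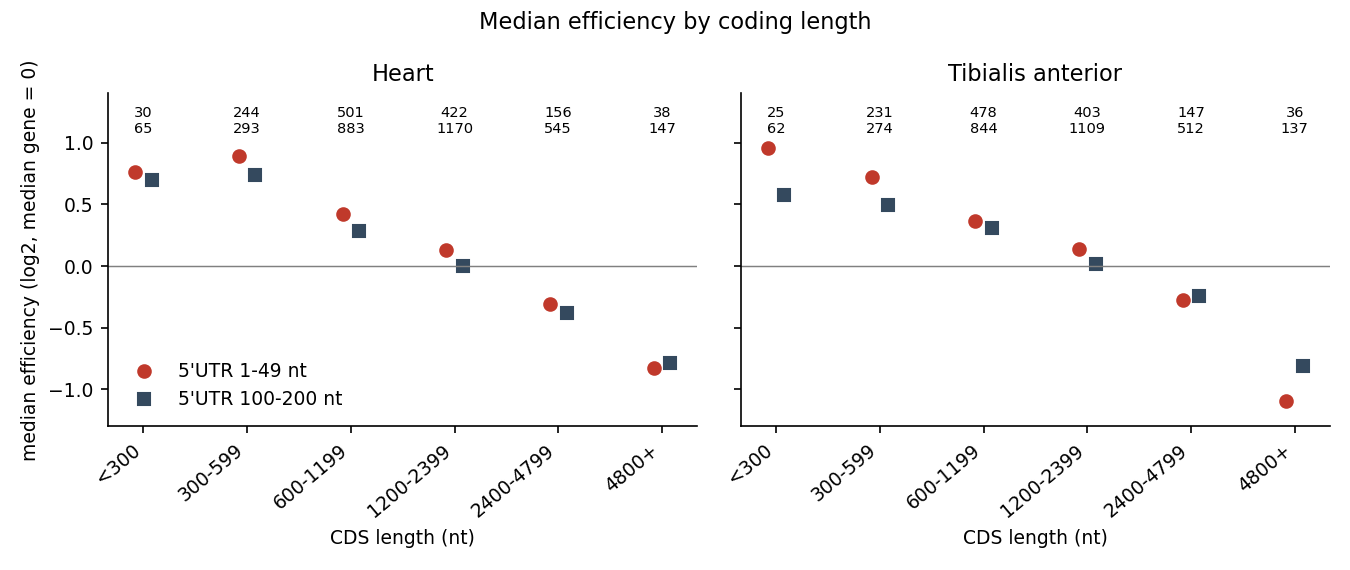
Median efficiency (log2, median gene set to 0) of genes with a 5'UTR of 1 to 49 nt (circles) and 100 to 200 nt (squares) in 6 classes of CDS length, with the numbers of genes printed above each pair (short leaders on top). From 300 nt upward both sets fall with CDS length, and in heart the circle is above the square in every class but the longest.

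By CDS length the short-leader median in heart ran from 0.77 below 300 nt and 0.89 at 300 to under 600 nt to -0.83 at 4800 nt and above. The difference from longer leaders was 0.15 at 300 to under 600 nt, 0.14 at 600 to under 1200 nt and -0.04 at 4800 nt and above. In TA it was 0.23 at 300 to under 600 nt, 0.06 at 600 to under 1200 nt, -0.03 at 2400 to under 4800 nt and -0.28 at 4800 nt and above. The extreme classes rested on few genes, 36 in TA at 4800 nt and above and 25 below 300 nt.

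Efficiency did not step at 50 nt. Against genes of like CDS length, the heart medians were 0.18 for leaders of 1 to 9 nt, 0.08 for 10 to 19 nt, 0.13 for 20 to 29 nt, 0.09 for 30 to 39 nt and 0.10 for 40 to 49 nt. Leaders of 50 to 99 nt gave 0.14, those over 200 and up to 400 nt -0.17 and those over 400 nt -0.40. The TA values for the 5 short classes were 0.06, 0.00, 0.08, 0.12 and 0.08, followed by 0.14, -0.15 and -0.41. The intervals of the 5 short classes overlapped one another in each tissue. With leaders of 50 to 99 nt in place of 100 to 200 nt as the comparison, the difference changed sign, to -0.013 in heart and -0.055 in TA. Just inside the limit, at 45 to 49 nt, the median efficiency was 0.23 in heart and 0.27 in TA, and just outside it, at 50 to 54 nt, 0.34 and 0.48.

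**Figure D2:**
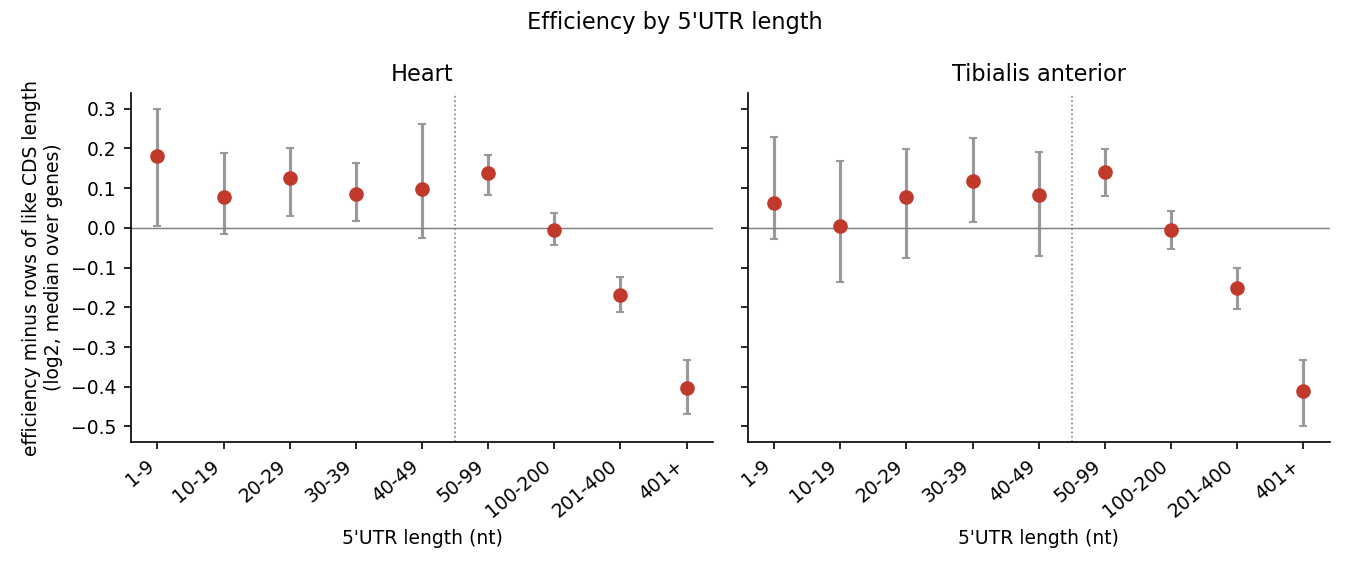
Median over genes of the efficiency minus that of the 50 genes with 5'UTR of 100 to 200 nt nearest in CDS length (log2), by 5'UTR length; bars are 95% order-statistic intervals over genes and the dotted line marks 50 nt. Leaders up to 99 nt lie at or above 0, and longer ones fall to -0.40 in heart and -0.41 in TA.

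RNA levels of short-leader genes differed little from those of genes of like CDS length, with intervals that include 0. The median RNA level was 20.0 RPM in heart and 13.6 RPM in TA. The log2 difference from genes of like CDS length was -0.055 in heart (interval -0.176 to 0.082) and 0.023 in TA (-0.090 to 0.108). The genes made up 13.0% of those counted in heart, where they took 10.8% of coding RNA and 11.9% of coding RPF reads. In TA the shares were 13.2%, 9.68% and 11.2%.

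The TISU core sat on the ATG at the deposited distance in 41 of the 60 genes that held it. Genes holding the core had a median efficiency of 0.37 in heart (59 genes) and 0.30 in TA (60 genes). At like CDS length they were higher by 0.20 in heart (interval -0.13 to 0.42, 35 of 59 above) and by 0.11 in TA (-0.09 to 0.43, 33 of 60 above). The values for short-leader genes without the core were 0.09 and 0.07, inside those intervals. Individual holders ranged widely. Grwd1, a WD-repeat protein of ribosome assembly, stood at 1.46 in heart and 1.30 in TA, whereas Rbm15b, an RNA-binding protein, stood at -2.08 and -2.18. Ndufs7, a complex I subunit, was at 1.65 and 1.43, but its core was not on an ATG at the deposited distance. The complex I subunits Ndufa9 and Ndufs4, whose cores on the start codon are printed above, were at -0.03 and 0.11 in heart. In TA they were at -0.14 and -0.46. Thoc2, of the mRNA export complex THO, was at -1.27 and -1.67. The 72 genes with AAGATGGCG on the start codon differed from genes of like CDS length in efficiency by 0.24 in heart (interval 0.09 to 0.37, 48 above) and 0.20 in TA (-0.02 to 0.44, 43 above). Their RNA levels were higher than those of genes of like CDS length, by 0.75 and 0.69 on the log2 scale.

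The shortest leaders at 10 RPM or more of RNA had 1 or 2 nt. Scn4a, the voltage-gated sodium channel of skeletal muscle, has 1 nt and a CDS of 5520 nt. Per kb of CDS it had 10.8 RPM of RPF and 17.9 RPM of RNA in heart, and 99.3 and 152 RPM in TA, an efficiency of -0.29 (interval -0.41 to -0.17) and -0.35 (-0.38 to -0.32). This was 0.41 above genes of like CDS length in heart. Tmem38a, the sarcoplasmic reticulum cation channel TRIC-A, also has 1 nt and gave -0.57 in heart and -0.17 in TA. Spryd4 gave 0.54 and 0.46, and the mitochondrial ribosomal protein gene Mrps5, with 2 nt, 0.41 and 0.44. Med25, a Mediator subunit with 2 nt, gave -0.58 and -1.02. Scn4a, Spryd4 and Mrps5 have an ATG at the deposited distance in RefSeq, but Tmem38a and Med25 do not. The first 3 alone already lay on both sides of the median gene, none 2-fold from it.

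The group held many mitochondrial genes. The word "mitochondrial" stood in the description of 159 of 1391 short-leader genes in heart (11.4%, interval 9.86 to 13.2) and 157 of 1320 in TA (11.9%). At like CDS length among leaders of 100 to 200 nt it stood in 4.61% and 4.64%, and among all genes in 4.74% and 4.98%. Their median efficiency was 0.55 in heart and 0.46 in TA, with 51 at least 2-fold above the median gene and 1 below in heart, and 35 and 5 in TA. Over all genes the shares were 16% above and 17.8% below in heart, and 15.4% and 18.7% in TA; the same shares stand behind the counts for the lists that follow. For short-leader genes so described, the median difference from genes of like CDS length was 0.21 in heart and 0.16 in TA. Of these, 97 of 159 and 92 of 157 were above. Genes so described outside the short-leader set had median efficiencies of 0.31 and 0.36. Without genes so described, in both sets, the efficiency difference at like CDS length stayed within its interval, as the closing section lists. The words counted in descriptions were chosen with the data in view.

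Among the gene lists with 3 or more short-leader genes, the mitochondrial ribosome, which makes the few proteins encoded in mitochondrial DNA, had the largest share of them: 36 of its 73 listed genes in each tissue. Its short-leader members had a median efficiency of 0.68 in heart and 0.47 in TA, and the other 37 genes 0.64 and 0.51. Compared with genes of like CDS length, the short-leader members were higher by medians of only 0.07 and 0.06, with 21 and 20 of 36 above. In heart 12 were at least 2-fold above the median gene and 0 below. Mrps34, a small-subunit protein, had 77.8 RPM of RPF on 17.9 RPM of RNA in heart and 44.7 on 10.9 in TA, an efficiency of 2.56 (2.33 to 2.80) and 2.29 (2.07 to 2.54). Mrps21 was at 2.28 and 2.18. The lowest were Mrps7, at -0.33 in heart and -0.26 in TA, and Mrpl1, at -0.13 and -0.75.

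Oxidative phosphorylation, the respiratory chain and ATP synthase, gave 27 short-leader genes, 32.5% of those listed in heart and 32.9% in TA. Their median efficiency was 1.21 in heart and 1.09 in TA, and 16 and 14 of them were at least 2-fold above the median gene with 0 below. The rest of the list stood at 0.70 and 0.81. Relative to genes of like CDS length the short-leader medians were 0.66 and 0.57. Ndufc1, a small complex I subunit with a CDS of 225 nt, had 631 RPM of RPF and 91.4 RPM of RNA in heart, and 202 and 66.5 RPM in TA. Its efficiency of 3.23 (3.13 to 3.33) was the highest in heart at 10 RPM or more, and was 1.86 (1.77 to 1.96) in TA. Atp5h, a subunit of the ATP synthase stalk, stood at 2.03 and 2.08, and the catalytic subunit Atp5b, with 7864 RPM of RNA in heart and 3866 in TA, at 0.55 and 0.57. Ndufb4 had the lowest heart value, -0.56, and -0.16 in TA.

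Fatty acid use gave 14 short-leader genes in heart and 13 in TA, with median efficiencies of 1.12 in both against 0.33 and 0.35 for the rest of the list. In heart 9 were at least 2-fold above the median gene and in TA 7, with 0 below. Relative to genes of like CDS length the short-leader medians were 0.97 and 0.90. Acadl, the long-chain acyl-CoA dehydrogenase of mitochondrial beta-oxidation, had 2329 RPM of RPF and 594 RPM of RNA in heart and 480 and 117 RPM in TA, an efficiency of 2.41 and 2.29. Hadha, the alpha subunit of the trifunctional protein that carries out later steps of beta-oxidation, stood at 1.07 and 0.70, Etfb, which passes electrons from these enzymes to the respiratory chain, at 0.46 and 0.69, and Ech1, an auxiliary isomerase, at 0.30 and 0.89. In the tricarboxylic acid cycle 4 of 21 listed genes had short leaders. Their medians, 0.10 and 0.00, were below the 0.42 and 0.52 of the rest of that list.

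**Figure D3:**
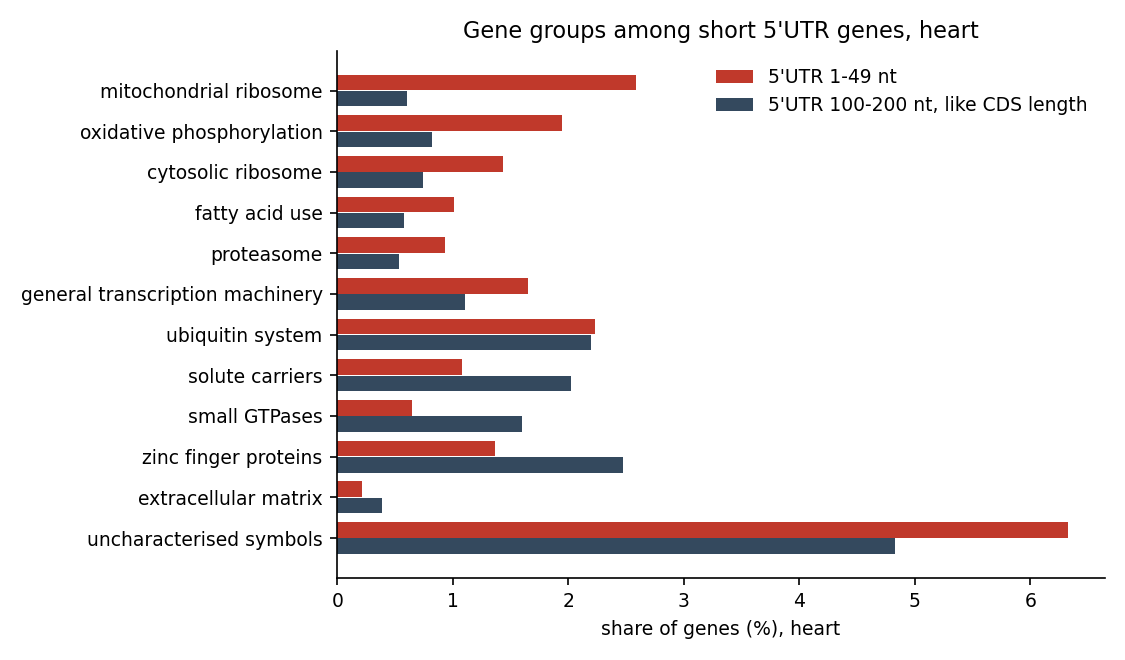
Share of heart genes (%) that belong to 12 of the 25 gene lists, for genes with a 5'UTR of 1 to 49 nt and for genes with a 5'UTR of 100 to 200 nt weighted to like CDS length. The mitochondrial ribosome makes up 2.59% of short-leader genes and 0.602% of the others, while zinc finger proteins make up 1.37% and 2.47%.

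Several other basic machineries were present. The cytosolic ribosome, which makes all other proteins of the cell, gave 20 short-leader genes of 72 listed in heart and 19 in TA. Their median efficiency was 0.25 in heart and -0.32 in TA, on either side of the median gene. Against genes of like CDS length they were lower in both muscles, by medians of -0.36 and -0.75, with 8 of 20 and 4 of 19 above. The rest of the list stood at -0.05 and -0.90. Rpl28 was the highest, at 1.94 and 1.00, while Rpl13a was at 0.16 and -2.18 and Rps28 at -0.75 and -1.53. Ribosomal protein genes have many near-identical processed copies in the genome, and the handling of shared reads was not stated, so these values are uncertain. The proteasome gave 13 genes in heart and 12 in TA, with medians of 0.71 and 0.43, beside 0.53 and 0.51 for the rest of the list. Against genes of like CDS length the medians were only 0.05 and 0.04. Psma7, of the core particle, stood at 1.56 and 1.10, the base ATPase Psmc5, with 6 nt of leader, at 1.18 and 1.27, and Psmd5 lowest at -0.49 and -0.47.

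The spliceosome list gave 10 genes in heart and 9 in TA, at medians of 1.21 and 1.14 against 0.62 and 0.51 for the rest. Relative to genes of like CDS length the short-leader medians were 0.66 and 0.61. Their median RNA levels were 11.6 and 7.20 RPM. Sf3b4, a protein of the U2 particle, stood at 2.12 in heart and 2.64 in TA. The general transcription list gave 23 and 21 genes with medians of 0.41 and 0.30, and 0.32 and 0.05 above genes of like CDS length. Polr2l and Polr2f, small subunits shared by the RNA polymerases, were at 2.36 and 2.39 in heart and 2.45 and 1.99 in TA, and Med29 was at 2.58 and 1.65. The Mediator-related genes Med12l and Cdk8 were at -2.56 and -2.42 in heart, and Cdk8 at -2.58 in TA.

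Zinc finger proteins, many of them transcription factors, gave 19 of 1391 genes in heart (1.37%) and 20 of 1320 in TA (1.52%), beside 2.94% and 2.98% of all genes. Their medians were -0.45 and -0.66, compared with -1.0 and -0.90 for zinc finger genes with other leaders. Zfp277 had 20.3 RPM of RPF on 239 RPM of RNA in heart and 14.3 on 139 in TA, an efficiency of -3.11 (-3.25 to -2.98) and -3.01 (-3.17 to -2.87). Zfp236 was at -3.05 and -3.40. At the other end Klf2, a Krüppel-like factor of endothelium and lymphocytes, was at 2.96 and 2.79 on 6.96 and 2.55 RPM of RNA. The word "collagen" was in no description of a short-leader gene, with 34 such genes listed in heart and 38 in TA. A count of 0 in 1391 has a Wilson upper bound of 0.275%, and at like CDS length the word stood in 0.112% in heart and 0.126% in TA, so a difference was not detectable. "Receptor" stood in 2.30% and 2.05% of short-leader descriptions and 4.04% and 3.76% of all.

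Across all functions, at 10 RPM or more of RNA, the heart order of efficiency after Ndufc1 was Ube2v1, a ubiquitin-conjugating enzyme variant, at 2.78, 6720456B07Rik, which encodes the actin regulator BRICK1, at 2.65, Med29 at 2.58, the kinase gene Cdk10 at 2.57 and Mrps34 at 2.56. Neighbours in that order after Ndufc1 had overlapping counting intervals. In TA the highest were Lyz2, the lysozyme of macrophages, at 2.46, Polr2l at 2.45, Ube2v1 at 2.30, and Acadl, Mrps34 and Higd2a, a respiratory chain assembly factor, each at 2.29. Lyz2 was at 1.43 in heart, on 70.5 RPM of RNA there and 12.2 in TA. The leukocyte list to which it belongs took 0.0383% of coding RNA in heart and 0.00753% in TA.

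Prkrir, a THAP-domain protein gene also known as a repressor of an inhibitor of the kinase PKR, had the lowest efficiency in both muscles. It had 4.92 RPM of RPF on 167 RPM of RNA in heart and 4.16 on 254 in TA. This is an efficiency of -4.61 (-4.90 to -4.39) and -5.64 (-5.95 to -5.41), and no other short-leader gene at 10 RPM or more was within 1 log2 unit of it in either tissue. Btbd6, a BTB-domain protein, was at -2.23 in heart and -3.04 in TA, and the Polycomb gene Phc1 at -1.23 and -2.98.

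Many genes were high, or low, in both muscles. Of the 1272 genes measured in both, 175 lay 2-fold or more above the median gene in each, which is 62.9% of the 278 in heart and 73.8% of the 237 in TA. At least 2-fold below in both were 72, 74.2% of 97 in heart and 60.5% of 119 in TA, and 0 genes were above in one and below in the other. Over all 9635 genes measured in both the shared parts were similar: 66.8% and 69.2% of those above, and 77.2% and 73.4% of those below. Of these 9635 genes, 4 were 2-fold above in heart and 2-fold below in TA, and 1 the reverse. Such genes were thus rare among all genes too. The tissues share no library, but they share every transcript's sequence and length.

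**Figure D4:**
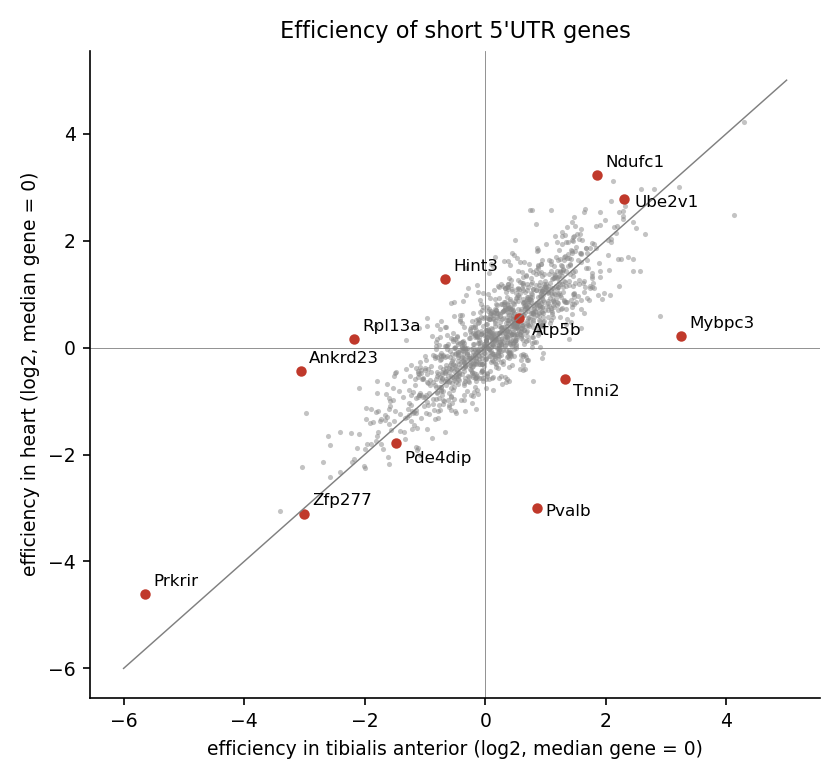
Efficiency (log2, median gene of each tissue set to 0) in heart against TA for the 1272 genes with a 5'UTR of 1 to 49 nt measured in both; the diagonal marks equal values and 12 genes named in the text are labelled. Most points lie near the diagonal, with Pvalb at -3.0 in heart and 0.86 in TA, and Ankrd23 at -0.45 and -3.06.

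RNA in RPM was more often higher in heart than in TA, for short-leader genes as for all genes. It was at least 2-fold higher in heart for 343 of 1272 (27.0%, against 34.2% of 9635 genes) and at least 2-fold lower for 32 (2.52%, against 3.79%). The median log2 ratio was 0.59, beside 0.69 for all genes. Once each gene is taken relative to that shift, 123 were higher and 113 lower (9.67% and 8.88%, against 12.9% and 10.3% of all). Centring makes the split nearly even by construction, and with libraries scaled without their 50 most abundant genes 149 were higher and 94 lower. Counts over all genes at that scaling were not taken. RPF levels were higher in heart for 324 genes (25.5%, against 29.5%) and lower for 52 (4.09%, against 5.11%), and relative to the shift for 141 and 140. In whole muscle, fewer cells of a type and less RNA per cell cannot be told apart.

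All 13 short-leader genes of fatty acid use measured in both muscles had at least 2-fold more RNA in heart. Their median log2 ratio was 2.34, beside 1.85 over the 55 genes of the whole list. Hadha had 2526 RPM of RNA in heart and 424 in TA, and Ech1 2239 and 217. Acss1, the mitochondrial acetyl-CoA synthetase, had 491 and 16.9 RPM, a log2 ratio of 4.85. Of 27 oxidative phosphorylation genes 9 were higher in heart, with a median of 0.94, and of 36 mitochondrial ribosome genes 5, with a median of 0.62. Beside the 34.2% of all genes that were higher in heart, the first share is alike and the other smaller. No proteasome gene passed 2-fold in either direction.

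The 6 widest RNA differences in each direction, at 10 RPM or more in either muscle, included contractile genes of heart and of fast muscle. Mybpc3 (cardiac myosin-binding protein C, of the thick filament) reached 5296 RPM of RNA in heart and 2.05 in TA, a log2 ratio of 11.27. Myl2, the ventricular and slow myosin regulatory light chain, had 8873 and 8.45 RPM, and Tnnc1, slow and cardiac troponin C, 1736 and 2.36. Pkp2, a desmosome protein of the intercalated disc, had 219 and 1.49, and Fbxl22, an F-box protein of the Z-disc, 48.4 and 1.55; Acss1, above, completes the list. In the other direction Tnni2, fast troponin I, had 20.0 RPM in heart and 7860 in TA, and Pvalb, the calcium buffer parvalbumin, 29.9 and 6607. Car3, a carbonic anhydrase of muscle, had 3.42 and 694, Sema6c, a semaphorin, 9.31 and 105, and Gpd1, the cytosolic glycerol-3-phosphate dehydrogenase, 42.2 and 359. The list ends with Scn4a, at a log2 ratio of -3.08. Actn3 and Tpm2, the fast-fibre alpha-actinin and beta tropomyosin, had 9189 and 5317 RPM in TA and are not listed for heart.

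Efficiency was at least 2-fold higher in heart in 49 short-leader genes (3.85%, against 4.07% of all) and at least 2-fold lower in 18 (1.42%, against 2.34%). Pvalb had the widest gap at 10 RPM or more in both: 2.66 RPM of RPF on 29.9 RPM of RNA in heart and 10044 on 6607 in TA, a difference of -3.86. Tnni2 had 9.74 on 20.0 RPM in heart and 16440 on 7860 in TA, a difference of -1.92. Both are on the fast skeletal marker list, which took 0.023% of heart coding RNA, and the part of that RNA in these heart values was not tested. Mybpc3, whose TA RNA was below the 10 RPM used for naming, stood at 0.22 in heart and 3.25 in TA, with 16.9 RPM of RPF on 2.05 RPM of RNA.

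Ankrd23, a muscle ankyrin repeat protein of the titin N2A region, had 95.6 RPM of RPF on 177 RPM of RNA in heart and 146 on 1458 in TA. Its efficiency was -0.45 (-0.53 to -0.36) in heart and -3.06 (-3.11 to -3.02) in TA, so its RNA was lower in heart by a log2 ratio of -3.04 while the efficiency was higher by 2.62. Rpl13a differed by 2.34, Hint3, a histidine triad protein, by 1.95 and Rpl22 by 1.80, all higher in heart. The 19 cytosolic ribosome genes with short leaders had a median difference of 0.57, and so did all 71 on that list measured in both. Vps25, of the ESCRT-II complex, and Ppp1r3c, a glycogen-targeting phosphatase subunit, were lower in heart by -1.22 and -1.05.

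Reads on the leader itself could seldom be seen. No gene with a leader of 1 to 9 nt had a read assigned to it in any of the 4 libraries, and at 10 to 19 nt 94.0% of heart genes had no RNA read there and 95.6% no RPF read. These leaders are shorter than an RPF of 26 nt, and the assignment of a fragment spanning the start codon was not stated. At 40 to 49 nt the shares with no read in heart were 49.2% for RNA and 54.6% for RPF, and in TA 48.5% and 65.3%. At 100 to 200 nt they were 19.9% and 13.9% in heart.

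**Figure D5:**
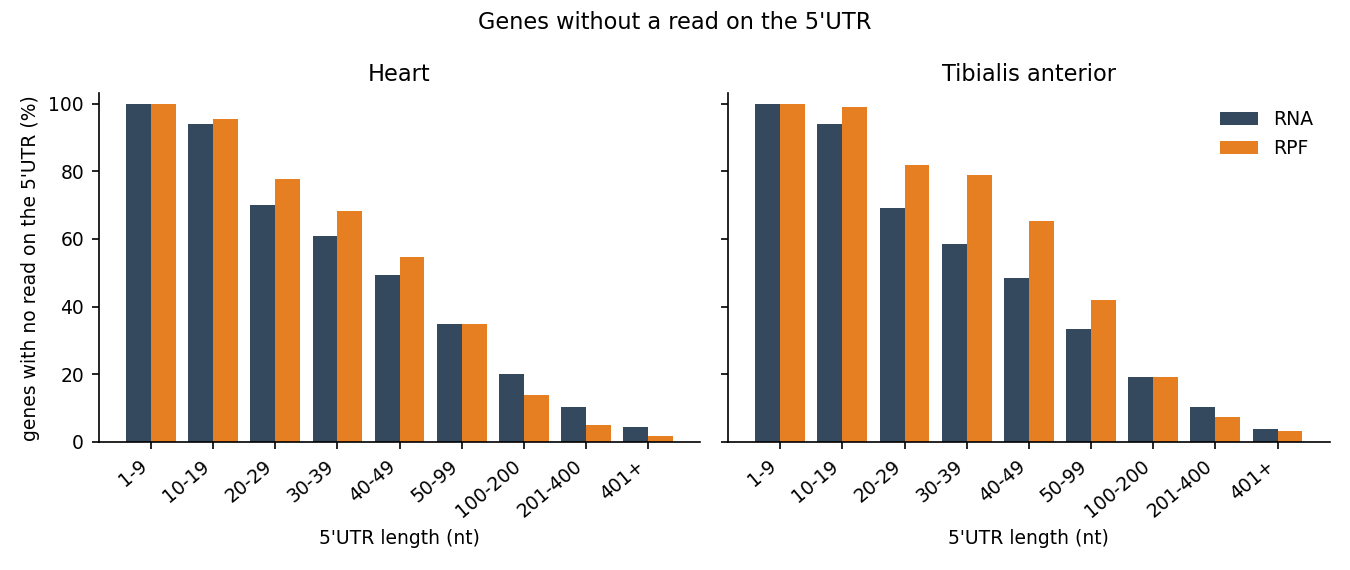
Share of genes (%) without a read on the 5'UTR, by 5'UTR length, for RNA (dark) and RPF (orange). Both are 100% at 1 to 9 nt and decline with length in both muscles.

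Summed over all short-leader genes, the RPF density per nt of leader was 0.376 times that of the CDS in heart and 0.074 times in TA, with counting intervals of 0.371 to 0.381 and 0.072 to 0.076. Single genes set these sums. Myl2 held 60.3% of the heart leader RPF, 518 RPM, and without it the ratio was 0.163. Mrps21 held 42.6% of the TA sum, 67.7 RPM, and without it the ratio was 0.043. Leaders of 100 to 200 nt gave 0.398 and 0.193. In RNA the short-leader ratio was 0.515 in heart, or 0.259 without Myl2, and 0.184 in TA, while leaders of 100 to 200 nt gave 0.391 and 0.372. Acot2, a mitochondrial acyl-CoA thioesterase singled out after its values were seen, had 120 RPM of RPF on its 41-nt leader in heart but 1.61 RPM of RNA, with 239 and 132 RPM on its CDS. The RPF density of that leader was 16.6 times that of the CDS.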

How the data were processed

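Ribosome profiling and RNA-seq were compared in 4 libraries, 1 per tissue and kind, from heart and TA. The authors deposited reads per 1000000 (RPM) for the 5'UTR, CDS and 3'UTR of 1 RefSeq transcript per row, with region lengths. The submitters' processing notes name Bowtie and mm9. Versions, trimming, multiple mapping and border rules: not given in the sources used here. RPM sums show no depth, so reads were estimated from the smallest step between low values, of which 99.7% to 100% lay within rounding (0.005 RPM) of a whole multiple. For RPF steps 28.3% to 28.6% would by chance, so no count test was run.

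Rows repeating a symbol were reduced to 1. Efficiency was log2((RPF + 0.1)/(RNA + 0.1)) minus the median of genes at 1 RPM or more. Each gene was compared with the median of the 50 comparison genes nearest in log CDS length. Intervals are 95%: order-statistic for medians, Wilson for shares, exact conditional binomial (from estimated reads) for ratios of 2 levels. Matching was tested on simulated data. Repeated draws averaged slightly above the shift put in for heart and close to it for TA. Single draws scattered by an amount that is not small beside the differences reported. Genes were named by fixed rules at 10 RPM or more: the 6 highest and 6 lowest efficiencies and 6 most read genes per tissue, the 5 shortest leaders, the 6 and 4 most different genes each way between tissues in RNA and efficiency, the 2 highest, 2 lowest and most read of each list with 3 or more members, and all holders of the TISU core. The list-based names have no minimum of 10 RPM. The genes, lists and description words were chosen with earlier results of these data known. Sequences are from RefSeq, GRCm38.p6, matched by symbol. No coordinates are given, since the files use mm9. Python 3.11.15, numpy 2.4.6, pandas 2.3.3, scipy 1.17.1 and matplotlib 3.10.9 were used.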

Additional observations from a re-analysis of the deposited data

Results flagged for a closer look

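Some genes named in the report, at 10 RPM or more of RNA in both muscles, had efficiencies on opposite sides of the median gene in heart and TA and at least 2-fold apart. With 1 library per tissue and kind, none of these differences was tested. As heart minus TA on the log2 scale they were -3.86 for Pvalb, -1.92 for Tnni2, -1.05 for Ppp1r3c, 1.29 for the mitochondrial ribosomal protein gene Mrpl13, 1.80 for Rpl22, 1.95 for Hint3 and 2.34 for Rpl13a. Pvalb rests on 2.66 RPM of RPF in heart and Tnni2 on 9.74. No group has enough samples to look for a sample standing apart.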

How the results depend on the processing

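Of 98 alternative values for the main results, 74 stayed within the main interval or within 1.5 times the main count, and 24 did not. The efficiency difference at like CDS length, 0.096 in heart and 0.086 in TA, became 0.22 and 0.21 without matching, 0.27 and 0.21 against leaders over 200 and up to 400 nt, and -0.013 and -0.055 against leaders of 50 to 99 nt. It stayed within its interval in both tissues with 20 neighbours, CDS bins, matching on RNA as well, members of 1 to 24 or 25 to 49 nt, CDSs of 300 nt or more, other pseudocounts or minimums, and without uncharacterised or (chosen after seeing the data) mitochondrial genes. Without centring, the genes at least 2-fold above the median gene in heart numbered 143 and those below 234, and those below in TA 190. RNA at least 2-fold higher in heart was found for 215 genes at a minimum of 5 RPM, 123 after centring and 149 when scaled without the 50 most abundant genes, and lower RNA for 113 and 94 in the last 2. For RPF the higher counts were 212, 141 and 160 and the lower counts 140 and 124. Efficiency at least 2-fold lower in heart was found for 9 genes at 5 RPM, 10 with a pseudocount of 1 RPM and 41 without centring. Apart from centred RNA and RPF, counts over all genes at these settings were not taken. The leader's RPF density ratio for leaders of 30 to 49 nt was 0.542 in heart and 0.113 in TA. Fewer genes pass the 5 RPM minimum, and centring moves every ratio by the median gene's; for the other changes the cause was not tested. Pseudocounts of 1 and 0.01 RPM were tried on the named genes after seeing the data. Counting each value once per pseudocount, 10 of 318 past 2-fold came back inside it, 2 others newly passed it and 0 reversed. No paired analysis was possible because each group has 1 library, and no library could be left out for the same reason.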

Other observations

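Each table also lists 121 genes with a 5'UTR length of 0, which the rule leaves out. At 1 RPM or more, 120 of them in heart and 117 in TA had median efficiencies of -0.30 and -0.24, and differed from genes of like CDS length by -0.09 and 0.00. Their median CDS was 2278.5 nt in heart and 2253 nt in TA.

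Genes with short leaders also had short 3'UTRs, with a median of 624 nt in heart and 614 nt in TA, against 930 nt and 932.5 nt for genes with a leader of 100 to 200 nt. The median share of a gene's RNA reads that fell in the 3'UTR was 27.0% in heart and 27.5% in TA for short-leader genes, and 30.2% and 32.0% for the others.

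The list of small GTPases, switches of vesicle traffic and signalling, gave 9 short-leader genes in each tissue, 0.647% of them in heart against 1.60% at like CDS length. It was matched by gene symbol and so also holds genes named after a GTPase, such as Rab3gap1, a GTPase-activating subunit. Their median efficiency was 0.85 in both tissues, and relative to genes of like CDS length 0.69 in heart and 0.27 in TA. Arl2, of tubulin folding, stood at 1.93 in heart and 1.81 in TA, and Arl6ip6, also only named after a GTPase, lowest at -0.88 and -0.98.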
